A study of Mus musculus with 2 samples.

Results

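The genes described here build ribosomes: subunits and initiation factors of RNA polymerase I, abundant nucleolar proteins, proteins of small nucleolar ribonucleoproteins (snoRNPs), and assembly factors of the small and the large ribosomal subunit. They are 50 listed genes, found on the array as spots for genes whose symbol in the array file, or whose current symbol through a RefSeq accession, is on the list. By that rule 49 genes were found, with 81 probes in 90 spots, of 14316 genes measured in the series. All 49 were measured, which here means that at least 1 channel of the probe was well above background on both arrays. The 50th, Nop56, was not found by that rule, but 2 probes carry Nol5a, which RefSeq lists as an older name of Nop56. Its values are given below and are left out of the counts.

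The series used G1E-ER-GATA-1 cells, a mouse erythroid line that lacks GATA-1 and carries a fusion of GATA-1 to the estrogen receptor, which β-estradiol switches on. Cells treated with LMO2 siRNA were compared with cells treated with control siRNA, and both were then kept in β-estradiol for 24 h. LMO2 is a bridging protein in the DNA-bound complex of GATA-1, TAL1 and LDB1, and the design asks how maturing cells differ in expression when LMO2 is low. The arms were read side by side as total RNA on a pair of two-colour Agilent arrays, with LMO2 siRNA in Cy3 and control siRNA in Cy5 on both, so dye and siRNA cannot be told apart. The arrays are numbered as replicates in the labels, which name no separate cultures, so the spread between them may be technical. The p-values draw only in part on a gene's own spread and mainly on variance shared across genes (1 residual and 28.1 prior degrees of freedom by loess). In each channel 55.8% to 68.2% of spots were well above background. The labels call the cells both erythroid and embryonic stem cells. All 12 erythroid markers on the array were above background in every channel. Of 8 pluripotent stem cell markers 4 were above it in every channel, and 2, Nanog and Sox2, which define pluripotent cells, in none. In every channel it was also exceeded by 4 of 8 granulocyte and macrophage markers and 4 of 7 lymphocyte markers. The same held for all 7 megakaryocyte markers, 4 of 5 mast cell markers and 3 of 6 endothelial markers, so full detection was not particular to the erythroid markers. The summed processed signal of the erythroid markers was 613205 and 625882 with LMO2 siRNA, against 400191 and 399601 with control siRNA, with 2 of the 12 saturated, while by limma on loess ratios 3 of the 12 were called higher and 5 lower. The sum over 4 measured mast cell markers was 4153 and 4920 with LMO2 siRNA, against 2166 and 2581 with control siRNA (3 called higher), and that over 7 megakaryocyte markers was 5231 and 5657, against 3778 and 3671 (2 called higher, 1 lower). Over all genes 24.5% were called higher and 27.4% lower by loess. By the stricter rule set out below, which combines 3 sets of values, 1 of the 12 erythroid markers was called, as lower. By that rule 3 of the 4 mast cell markers were higher, and 2 of the 7 megakaryocyte markers were higher and 1 lower. Of all genes 5.42% were higher and 2.56% lower by it. The part of these markers in the results below was not tested. Lmo2 itself had background-subtracted signals of 1211 and 1099 with LMO2 siRNA, against 8290 and 8521 with control siRNA. Its log2 ratio was -1.82 and -2.02 on the arrays (-1.92 ± 0.14, SD, n = 2, limma adjusted p = 2.9e-21).

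Ribosome production starts in the nucleolus, where RNA polymerase I transcribes the precursor of the large ribosomal RNAs. The promoter selectivity factor and UBTF place the polymerase on the gene, snoRNPs guide methylation and pseudouridylation of the transcript, and assembly factors cut and fold it into the subunits. Red cell precursors make many ribosomes while they divide and shut nucleolar activity down as they mature, and inherited defects of ribosome assembly are a known cause of anaemia.

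Ratios are log2 values of LMO2 siRNA over control siRNA, given as the mean ± SD over both arrays (n = 2) of the gene's brightest measured probe after loess normalization. A gene is called where limma's adjusted p is under 0.05. Of the 49 genes, 10 were called higher, 22 were called lower and 17 were not called, which is 65.3% called against 51.9% of all measured genes. The 10 include Polr1c, whose arrays differed in sign, and Npm1, whose probe was saturated in the control channel. Over all genes 24.5% were called higher and 27.4% lower. The median ratio of the 49 genes was -0.11, and -0.05 and -0.10 on the arrays taken alone, against -0.02 for all measured genes. In 43 genes the sign was the same on both arrays. Fewer cells of a type and less RNA per cell cannot be told apart in such bulk RNA.

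These ratios moved with the row of the array on which the probe is printed. Across the 49 genes the correlation of row and ratio was r = 0.55 (rho 0.68), against r = 0.45 over all 14316 genes, all read from the same pair of arrays. The 15 genes printed in rows 1 to 133 had a median ratio of -0.29, with 0 called higher (also 0 at limma's unadjusted p under 0.05) and 13 called lower. The 12 genes in rows 134 to 266 had a median of -0.09 (2 higher, 5 lower), and the 13 in rows 267 to 399 had a median of 0.04 (3 higher, 3 lower). The 9 genes in rows 400 to 532 had a median of 0.24, with 5 called higher and 1 called lower. Over all measured genes the medians in the same 4 row ranges were -0.17, -0.06, 0.03 and 0.12. Of 3711 such genes in rows 1 to 133, 279 were called higher and 2066 lower. The next ranges gave 583 and 1223 of 3741, then 1116 and 479 of 3668. Rows 400 to 532 gave 1531 and 155 of 3196. The scanner files hold a position ratio for each spot and channel. Dividing the signals by it before loess (position correction) brought r across the 49 genes to 0.11. Their medians in the 4 row ranges then were -0.05, -0.01, -0.04 and 0.01. With position correction the 49 genes had a median of -0.04, 7 were called higher and 10 lower, and 34.7% were called against 38.2% of all genes (20.3% higher, 17.9% lower). With the scanner's own processed signals, which hold position and dye correction, 2 were called higher and 2 lower, and 8.16% were called against 10.2% of all genes (6.8% higher, 3.41% lower). With position correction 44 of the 49 genes lay within 0.3 of 0.

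**Figure D1:**
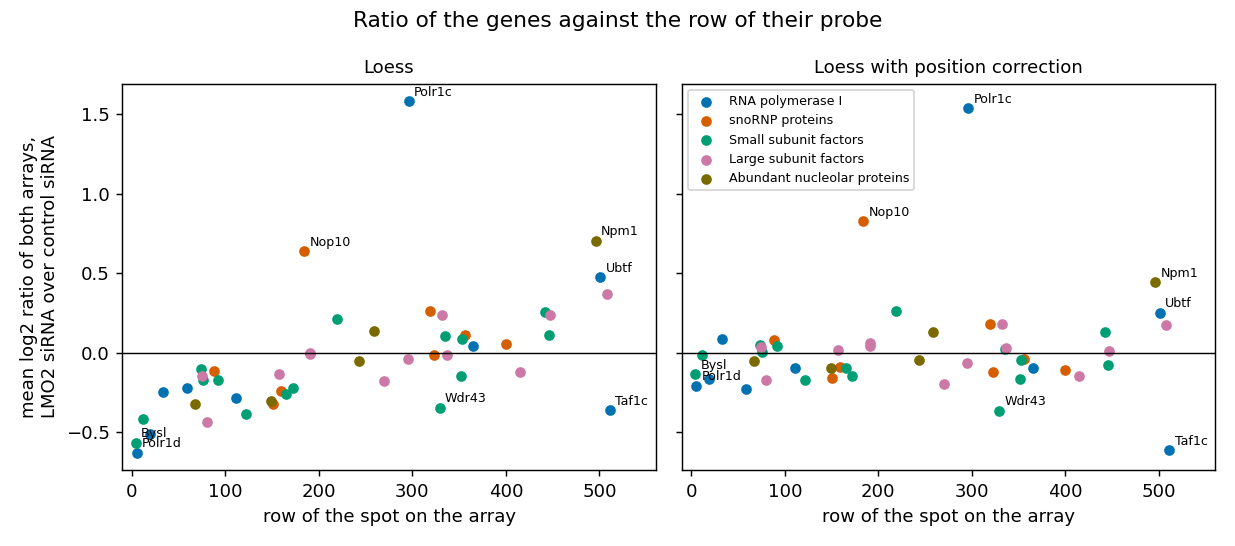
Mean log2 ratio (LMO2 siRNA over control siRNA, both arrays) of the 49 genes against the row of their probe on the array, with loess (left) and with position correction added (right). Genes in low rows lie below 0 and genes in high rows above it on the left (r = 0.55), and the slope is nearly flat on the right (r = 0.11), where Polr1c, Nop10 and Taf1c still stand apart.

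In what follows a gene is said to have risen or fallen only where it was called in 1 direction with loess, with position correction and with processed signals, on a probe saturated in no channel. Nop10 rose and Taf1c and Wdr43 fell by this rule, which is 6.12% of the 49 genes against 7.98% of all measured genes (5.42% higher, 2.56% lower). Nop56, outside the count, fell as well. The genes thus passed this rule at about the share of the array as a whole.

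**Figure D2:**
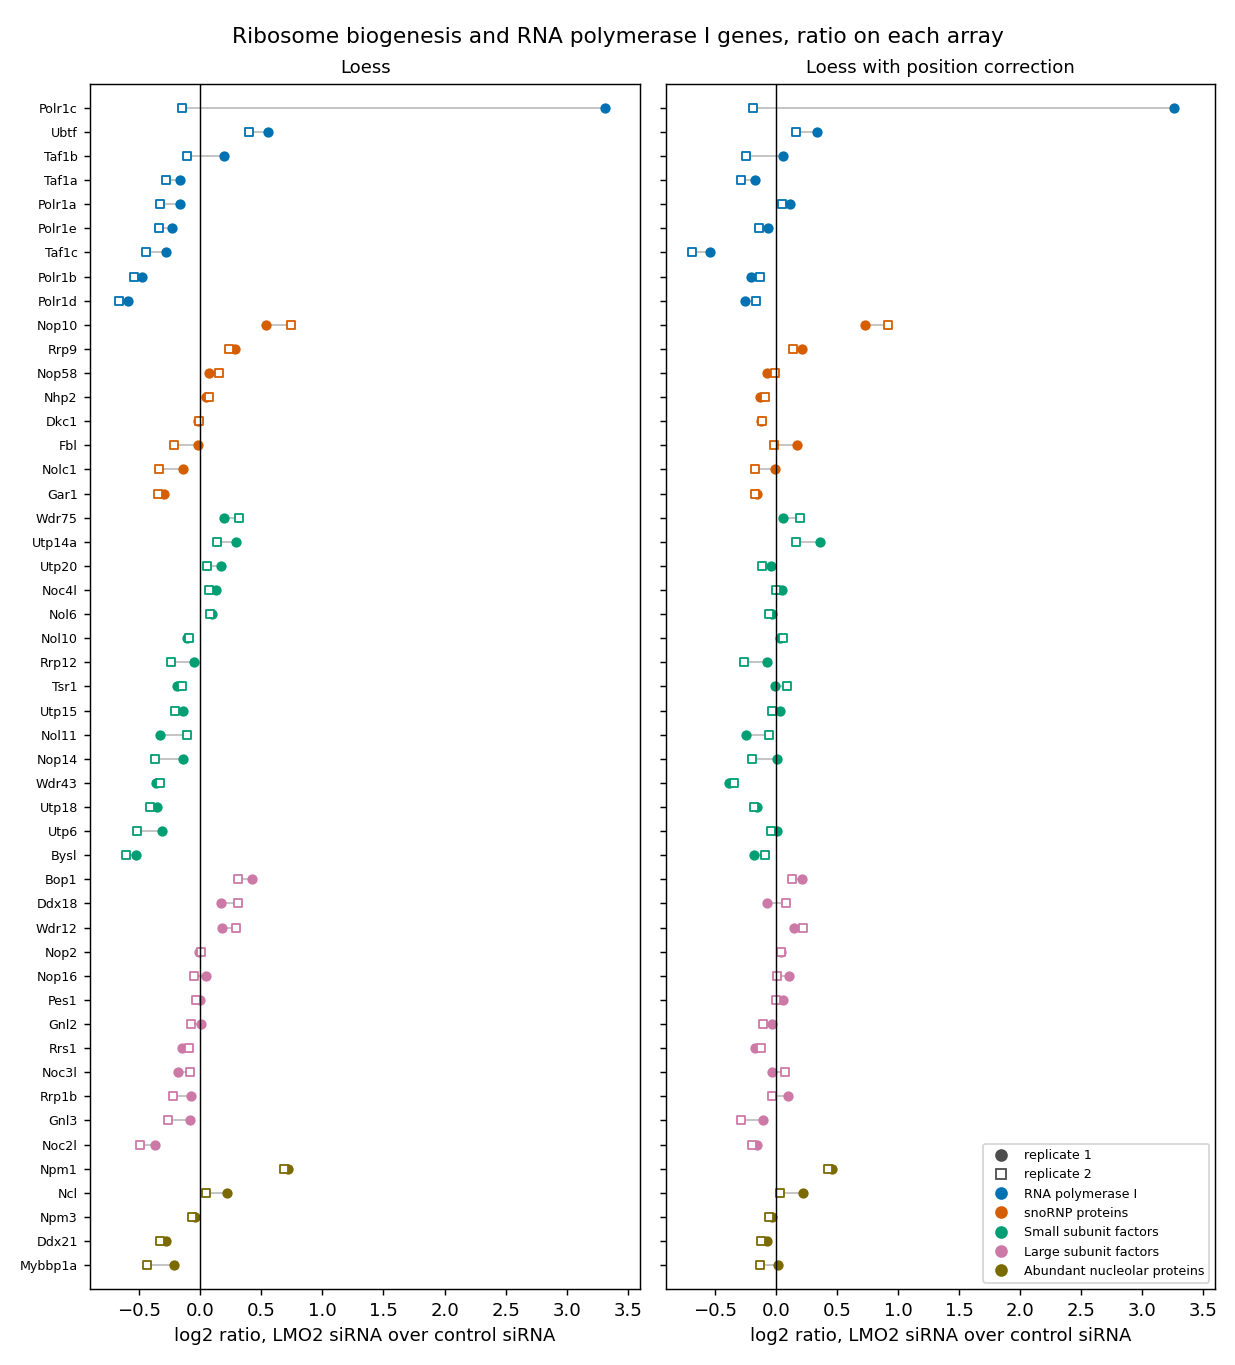
Log2 ratio of each of the 49 genes on replicate 1 (filled circles) and replicate 2 (open squares), coloured by role, with loess (left) and with position correction (right). Most genes lie within 0.3 of 0 on the right, Nop10 lies at 0.73 and 0.92, Taf1c at -0.54 and -0.69, and the arrays are far apart only for Polr1c.

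Probes and promoters are printed for the 4 genes that rose or fell. The probe stretches are bases 1 to 30 of 60, from the array files, and identify what was hybridised, without their place in the transcript, which was not looked up; both probes are given where a gene has a second measured one.
Nop10 probe: tatctcactcaccacgtgaatgagtctata
Nop56 brightest probe: ggcataccttgtggcagctcctgcccatga
Nop56 other probe: agggccagggaaattataaaatgtgagagt
Taf1c probe: tggggaaccagtccacttcgtgtatttgat
Wdr43 brightest probe: ttttggtgtgctacacagctttttcaaatt
Wdr43 other probe: cagaaactctcaaacctgcatggaaaactc
The promoter stretches are the 250 bases before the most upstream listed start in RefSeq (GRCm38.p6), on the strand of the gene, with matches to the motifs below in capitals.
Nop10, chr2:112261676-112261925, plus strand: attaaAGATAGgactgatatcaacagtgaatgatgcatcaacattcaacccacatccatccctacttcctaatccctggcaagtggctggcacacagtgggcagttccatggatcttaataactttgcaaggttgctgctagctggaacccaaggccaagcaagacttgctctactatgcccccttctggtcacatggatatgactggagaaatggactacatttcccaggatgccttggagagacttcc
Nop56, chr2:130274162-130274411, plus strand: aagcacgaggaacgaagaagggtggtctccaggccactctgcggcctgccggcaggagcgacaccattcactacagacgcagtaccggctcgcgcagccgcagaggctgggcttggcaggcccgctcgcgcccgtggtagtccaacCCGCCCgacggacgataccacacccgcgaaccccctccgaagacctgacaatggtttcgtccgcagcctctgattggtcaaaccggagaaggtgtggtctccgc
Taf1c, chr8:119605207-119605456, minus strand: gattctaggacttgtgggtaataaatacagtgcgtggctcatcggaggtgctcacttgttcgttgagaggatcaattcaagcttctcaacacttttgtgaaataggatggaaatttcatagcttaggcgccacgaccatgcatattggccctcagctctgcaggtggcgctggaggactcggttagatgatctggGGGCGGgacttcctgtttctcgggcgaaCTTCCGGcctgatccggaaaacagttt
Wdr43, chr17:71615965-71616214, plus strand: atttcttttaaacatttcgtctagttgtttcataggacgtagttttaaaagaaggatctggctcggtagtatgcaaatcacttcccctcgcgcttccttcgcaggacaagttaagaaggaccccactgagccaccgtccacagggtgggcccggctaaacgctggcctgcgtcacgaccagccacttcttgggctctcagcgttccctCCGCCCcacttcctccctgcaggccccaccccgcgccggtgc
The motifs searched were the GATA motif, written as AGATAA with either A or T as its first letter and either A or G as its last, the E-box CACGTG, the ETS motif CCGGAAG and the GC box GGGCGG, each on both strands, and matches of different motifs may share end letters. The Nop10 stretch holds a GATA motif that begins 245 bases before the start. Nop56 and Wdr43 hold a GC box at 104 and 42 bases, and Taf1c holds a GC box at 55 and an ETS motif at 27 bases. RefSeq windows were matched for 42 of the 50 genes (53 windows), and 11.3% of these held a GATA motif, against 26.5% of 32851 windows of the same length. A GC box stood in 66.0% of the 53 windows against 32.7% of all windows, an ETS motif in 18.9% against 6.91%, and an E-box in 5.66% against 6.02%. A match describes letters and not a bound site.

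Among the RNA polymerase I genes, Taf1c fell. TAF1C is a subunit of the promoter selectivity factor that joins the TATA-binding protein to the ribosomal RNA gene promoter. Its background-subtracted signal was 678 and 580 with LMO2 siRNA, against 1514 and 1454 with control siRNA. The Cy5 channel read brighter for most genes, and Taf1c in the LMO2 siRNA arm came to 44.8% and 39.9% of the control arm, where 1612 genes of like brightness (within 0.5 log2 units) had medians of 54.5% and 54.4%. The ratio was -0.28 and -0.45 (-0.36 ± 0.12, adjusted p = 4.8e-06), which is 1.29-fold lower. It was larger with position correction, at -0.54 and -0.69 (mean -0.61), and with processed signals, at -0.67 (adjusted p = 0.039). Taf1c lies in row 511, among the rows where other genes were mostly above 0, and was the 1 gene called lower there.

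Of the 9 RNA polymerase I genes, 2 were called higher, 6 were called lower and 1 was not called with loess, or 88.9% called against 51.9% of all genes. The 2 called higher were Ubtf and Polr1c, and the arrays differed in sign for Polr1c. With position correction 1 was called higher and 4 lower, or 55.6% against 38.2%. Polr1d, a subunit shared with RNA polymerase III, had a ratio of -0.59 and -0.66 in row 5 and -0.21 with position correction. Polr1b, the second largest subunit, had -0.48 and -0.55 in row 19 and -0.16 with position correction. Both were called with loess and with position correction but not with processed signals (adjusted p = 0.12 and 0.11), and Polr1d was the only gene of the 49 at least 1.5-fold lower on both arrays. Of all genes 4.26% passed that size on both arrays (3.08% higher, 1.18% lower). The other Polr1d probe, in row 157, fell short of it, at -0.21 and -0.31, and -0.17 with position correction. Polr1a, the catalytic subunit, turned in sign, with -0.25 ± 0.12 by loess in row 33 and 0.08 with position correction. Polr1e, a subunit bound to the initiating polymerase, had -0.29 ± 0.08 and was not called with position correction (-0.10). Taf1a, a partner of TAF1C in the selectivity factor, had -0.22 ± 0.08 and -0.23 with position correction, and Taf1b had 0.19 and -0.10 and was not called. A second measured probe of Taf1a, in row 43, had -0.37, and -0.12 with position correction.

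Ubtf, which opens ribosomal RNA genes for transcription, was called higher. Its signal was 2950 and 2395 with LMO2 siRNA, against 3774 and 3321 with control siRNA, and the ratio was 0.55 and 0.40 (0.48 ± 0.11, adjusted p = 4.4e-08). The probe lies in row 501, and the ratio was 0.25 with position correction (adjusted p = 0.0069) and was not called with processed signals (adjusted p = 0.11). A second Ubtf probe in row 210 had 0.05, and 0.09 with position correction.

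Polr1c, also shared with RNA polymerase III, gave the largest mean ratio and the poorest repeat. Its signal was 6982 and 7473 with LMO2 siRNA, against 1260 and 15888 with control siRNA. The LMO2 siRNA arm repeated closely, and the control arm differed between the arrays. The ratio was 3.31 on replicate 1 and -0.15 on replicate 2 (1.58 ± 2.45, adjusted p = 1.4e-04), so its sign rests on replicate 1. No outlier flag was set on its spots. It was not called with position correction (1.54, adjusted p = 0.053) or with processed signals (adjusted p = 0.31). Without Polr1c the arrays correlated at r = 0.93 across the other 48 genes (0.87 with position correction), and with it at r = 0.45.

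**Figure D3:**
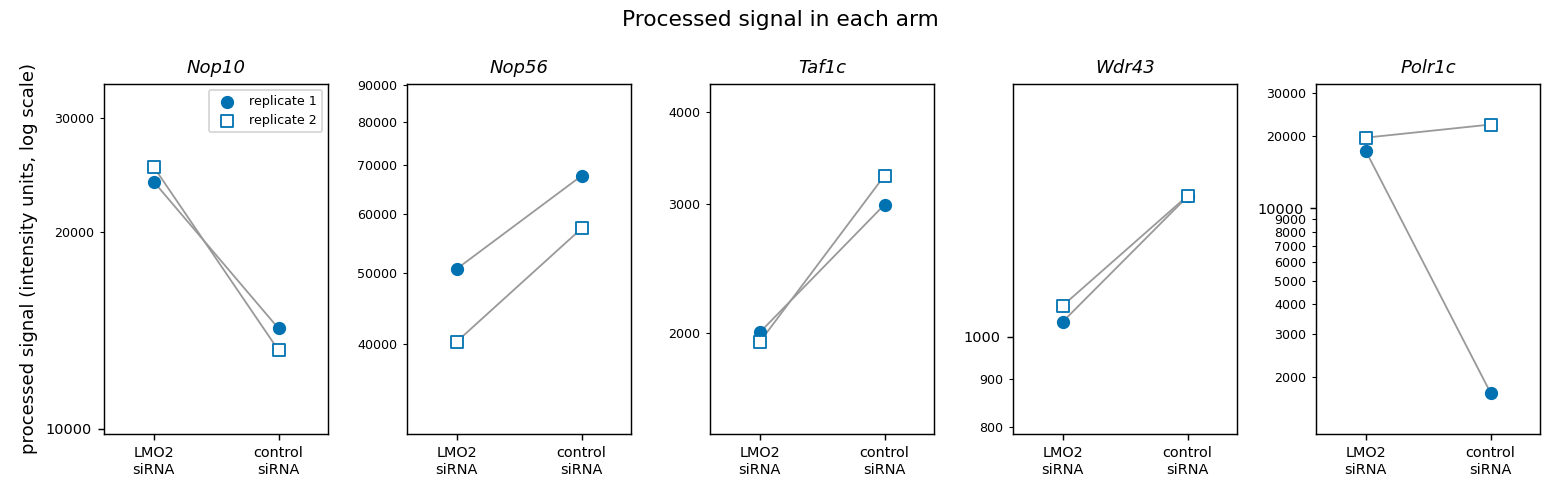
Processed signal (intensity units, log scale, each panel with its own range) of Nop10, Nop56, Taf1c, Wdr43 and Polr1c in the LMO2 siRNA arm and the control siRNA arm, with a line for each array. Nop10 is higher with LMO2 siRNA on both arrays, Nop56, Taf1c and Wdr43 are lower on both, and the Polr1c control signal is 1716 on replicate 1 and 22230 on replicate 2.

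Among the snoRNP proteins Nop10 rose and Nop56 fell. NOP10 is the small core protein of H/ACA snoRNPs, which carry out pseudouridylation and also form part of telomerase. Its processed signal was 23917 and 25188 with LMO2 siRNA, against 14247 and 13185 with control siRNA. Before dye correction the signals were 8835 and 8761 with LMO2 siRNA and 11952 and 9986 with control siRNA, or 73.9% and 87.7%, where 821 genes of like brightness had medians of 49.4% and 51.2%. The ratio was 0.54 and 0.74 (0.64 ± 0.14, adjusted p = 2.5e-10), which is 1.56-fold higher, and 0.83 with position correction and 0.84 with processed signals (adjusted p = 0.033). Its direction is relative to that normalization, since with median centring in place of loess the ratio was -0.08 while the median of all genes was -0.40.

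NOP56 is a core scaffold protein of box C/D snoRNPs, which guide methylation. The brightest probe under the older name Nol5a gave 18807 and 14312 with LMO2 siRNA, against 51190 and 38880 with control siRNA, which is 36.7% and 36.8% where 318 genes of like brightness had medians of 46.5% and 48.8%. Its ratio was -0.41 and -0.46 (-0.44 ± 0.04, adjusted p = 1.3e-07), or 1.35-fold lower. The ratio was -0.49 with position correction and -0.47 with processed signals (adjusted p = 0.047). The dimmer probe of Nop56 had -0.32 and -0.48, and -0.40 with position correction, so both probes were lower on both arrays.

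For the other proteins of these particles the ratios lay closer to 0. Nhp2 and Gar1, which sit beside NOP10, had 0.06 ± 0.02 (not called) and -0.32 ± 0.04 (called lower, -0.16 with position correction), and Dkc1, the pseudouridine synthase, had -0.02 ± 0.004. A second Dkc1 probe in row 33 had -0.42, and -0.11 with position correction, where the first had -0.12. Nop58, the partner of NOP56 in box C/D particles, had 0.11 ± 0.06 and was not called. Fbl, the methyltransferase of those particles, was saturated on each array in the control channel, so no fold is given. Its measured ratio was -0.11 by loess (not called, adjusted p = 0.11) and 0.08 with position correction, and its processed signal was 95015 and 92611 with LMO2 siRNA, against 82453 and 90840 with control siRNA. Rrp9, which binds the U3 snoRNA, was called higher at 0.26 ± 0.04 (0.18 with position correction), and Nolc1, a snoRNP chaperone, was called lower at -0.24 ± 0.14 and not called with position correction. Of the 8 counted snoRNP genes 2 were called higher and 2 lower (50% against 51.9% of all genes), and with position correction 2 and 1 (37.5% against 38.2%).

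Among the small subunit factors Wdr43 fell. WDR43 belongs to the complex that binds the start of the precursor RNA. Its signal was 394 and 380 with LMO2 siRNA, against 934 and 875 with control siRNA, or 42.2% and 43.4%, where 1564 genes of like brightness had medians of 55.4% and 55%. The ratio was -0.36 and -0.33 (-0.35 ± 0.02, adjusted p = 5.7e-06), or 1.27-fold lower, and it was -0.36 with position correction. With processed signals it was -0.42 and close to the threshold (adjusted p = 0.0497, and 0.051 in the series' own value table). The other Wdr43 probe gave 0.16, and -0.04 with position correction, so the decrease was read by 1 probe of 2, and the mean of both was not called (-0.09, adjusted p = 0.15).

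Of the 15 small subunit factors 2 were called higher, 9 lower and 4 neither, or 73.3% called against 51.9% of all genes. With position correction 1 was called higher and 2 lower, or 20% against 38.2%. Bysl, needed for late steps of the small subunit, had the lowest ratio, at -0.52 and -0.60 in row 4, and -0.14 with position correction. Its other probes, in rows 483 and 290, had -0.0035 and -0.09, and -0.08 and -0.12 with position correction. Utp6 and Utp18, early processome proteins, had -0.42 ± 0.15 and -0.38 ± 0.04, and -0.01 and -0.17 with position correction, where Utp18 was still called. The dimmer probes of Utp6 had 0.07 and -0.04, and that of Utp18 had -0.03 (-0.08 with position correction). Nop14, Nol11, Utp15, Tsr1 and Rrp12 were called lower at -0.26 to -0.15, and none of them was called with position correction. Wdr75 and Utp14a were called higher at 0.25 ± 0.08 and 0.21 ± 0.11, and of these Utp14a, whose yeast form stimulates an RNA helicase, was also called with position correction (0.27). Noc4l, Nol6, Nol10 and Utp20 were not called, at -0.10 to 0.11.

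None of the 12 large subunit factors rose or fell. With loess 3 were called higher, 3 lower and 6 neither (50% against 51.9% of all genes), and with position correction 2 higher and 3 lower (41.7% against 38.2%). Bop1, Pes1 and Wdr12 form a complex that processes the precursor of the large subunit RNAs. Bop1 had 0.43 and 0.31 (0.37 ± 0.08) in row 508, and 0.18 with position correction, called both ways. Wdr12 had 0.23 ± 0.08, and 0.18 with position correction, called both ways, while its other probes had 0.15 and -0.15 and the mean of all its probes was not called (0.08, adjusted p = 0.24). Pes1 had -0.02 ± 0.02 and was not called, and its other probe had -0.30, and -0.29 with position correction. Noc2l, whose yeast form moves large subunit precursors within the nucleus together with that of Noc3l, had -0.43 ± 0.08 (-0.17 with position correction), and Noc3l had -0.13 ± 0.07 and was not called. The other Noc2l probe, in row 202, had -0.07, and -0.0007 with position correction. Gnl3 (nucleostemin), a GTPase, was called lower at -0.17 ± 0.12, and -0.20 with position correction. Rrs1 was called lower only with position correction (-0.15). Rrp1b was called lower by loess (-0.15) and had 0.03 with position correction, and the helicase Ddx18 was called higher (0.24) and had 0.01. Gnl2, Nop16 and the RNA methyltransferase Nop2 lay between -0.04 and 0.00 and were not called.

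None of the 5 abundant nucleolar proteins rose or fell. Npm1, the chaperone nucleophosmin, had signals of 51318 and 51773 with LMO2 siRNA, against 65210 and 65173 with control siRNA, where the control spot was saturated each time. Its brightest probe therefore gives no fold, and the unsaturated probe had a ratio of 0.21, and 0.06 with position correction. The saturated probe is still counted among the genes called higher with loess, with position correction and with processed signals, though its control signal is a lower bound. With processed signals Npm1 and Nop10 were the 2 genes called higher. Ncl (nucleolin) had 0.22 and 0.05 and was not called, and its 4 probes ran from -0.16 to 0.42, and from -0.01 to 0.21 with position correction. Mybbp1a had -0.33 ± 0.16 and the helicase Ddx21 -0.30 ± 0.04, both called lower by loess and neither with position correction (-0.05 and -0.10). Npm3 had -0.05 ± 0.02 and was not called.

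Other probes of a gene give a second reading of it from another row, though their place in the transcript was not looked up. Some are listed under another transcript of the gene, as for Polr1d and Rrp1b. What made probes of a gene differ was not tested. Of the 49 genes 22 had several measured probes, and in 7 the probes differed in sign. The median gap between the highest and lowest probe was 0.37, and 0.14 with position correction, with which 10 genes differed in sign. Of the 32 genes called with loess, 25 were closer to 0 with position correction, 21 of them by over 1.5 times, and 4 turned in sign. With the mean of all probes in place of the brightest, Ddx21, Nolc1, Nop14, Tsr1, Utp15, Wdr12 and Wdr43 lost their loess call, and Dkc1 (-0.22) and Pes1 (-0.16) were called lower.

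**Figure D4:**
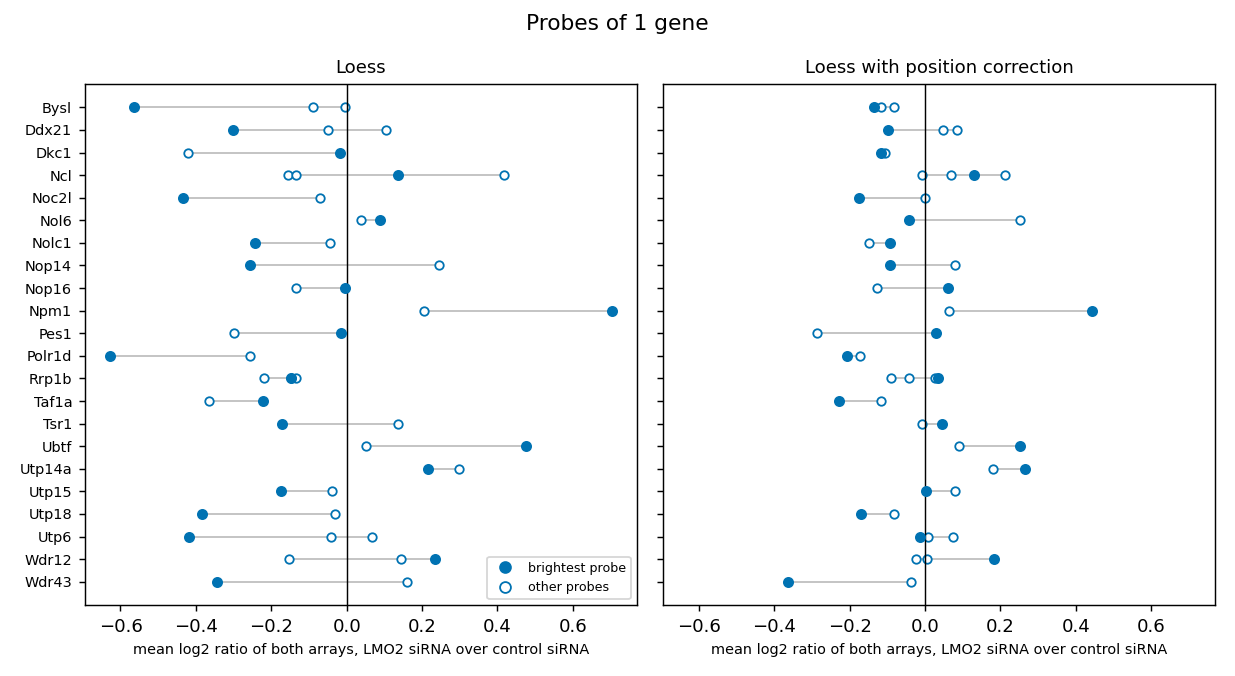
Mean log2 ratio (LMO2 siRNA over control siRNA) of each measured probe of the 22 genes with several, with loess (left) and position correction (right); filled points are the brightest probe and open points the others. The probes of most genes draw together on the right (median gap 0.14, against 0.37 on the left), and those of Npm1, whose brightest probe is saturated, Pes1 and Wdr43 stay apart. Those of some genes move apart, such as Nol6, at 0.09 and 0.04 on the left and -0.04 and 0.25 on the right.

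A further 117 ribosome biogenesis genes, on a list that holds none of the 50, were read for comparison, and 115 were measured. By loess 20 were called higher, 44 lower and 51 neither, or 55.7% called against 51.9% of all genes, with a median ratio of -0.06. With position correction 13 were called higher and 31 lower, or 38.3% against 38.2%, while the processed signals gave 0 higher (7 at limma's unadjusted p under 0.05) and 1 lower, or 0.87% against 10.2%. The 1 lower gene, Emg1, a methyltransferase of the small subunit RNA, fell, with -0.67 and -0.76 (-0.72 ± 0.06), -0.44 with position correction and an adjusted p of 0.046 with processed signals. Of 12 RNA exosome genes, which trim the precursors, 1 was called higher and 7 lower, and 0 (also 0 unadjusted) and 6 with position correction. That is 66.7% called against 51.9% of all genes by loess, and 50% against 38.2% with position correction. Of 9 snoRNP assembly and Cajal body genes 0 were called higher (1 unadjusted) and 5 lower, and 0 (also 0 unadjusted) and 5 with position correction, with a median of -0.17. Both shares were 55.6%, against 51.9% and 38.2% of all genes. Myc, which activates many of these genes, had 0.32 ± 0.04, and 0.27 with position correction, and was called both ways but not with processed signals (adjusted p = 0.079).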

How the data were processed

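RNA of both arms was read on 2 two-colour arrays with Agilent Feature Extraction 9.1.3.1, per the submitters' processing notes. The deposited scanner files give mean, background and processed signal per spot as intensity on a linear scale; per the file headers, the software subtracted background, corrected position and normalized dyes to make the processed signals. The deposited position value of each spot and channel is a linear ratio, per the file headers. The deposited log10 values, in the scanner files and in the series' own table, are control over LMO2 siRNA (red over green), and the table matches the scanner files within 0.005, with both arrays at a median of 0, which settles scale and direction. For the array design, no genome build is given in the sources used.

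Signals were background-corrected with normexp (offset 50) and loess-normalized (control spots at weight 0) in limma 3.58.1 (R 4.3.3), and ratios turned to LMO2 siRNA over control siRNA. Control spots (1639) were left out, and the other 43379 spots averaged to 41174 probes, of which 24737 were measured. RefSeq accessions named 24844 probes, 9636 go by the symbol in the array file and 6694 have no symbol. Each gene's mean was tested against 0 with lmFit and eBayes over 14316 genes with Benjamini-Hochberg adjustment. With 1 residual and 28.1 prior degrees of freedom the p-value draws mainly on variance shared across genes (8.69 prior with position correction, 2.20 with processed signals). The fit was tested on simulated data, where it recovered 100% of 100 genes changed 1.5-fold and made 16 false calls. That run was not used to judge the effects of row or dye. The number of arrays limits the precision.

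The genes, the further list, the tests and the alternatives were chosen with earlier results of these data known, and the combined rule was added after seeing the data. Named are Lmo2, every listed gene, and up to 4 further genes in each direction that pass the combined rule, and Myc is named as the only regulator listed. Nop56 was looked up under its older symbol after its absence was noticed. Like brightness was set at 0.5 log2 units. Alternatives varied position, signals, the offset, normalization, dim-probe filters, spots with saturation or outlier flags, how probes are summarised, the variance prior, the series' table, the threshold and each array alone.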

Additional observations from a re-analysis of the deposited data

How the results depend on the processing

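With 2 arrays in 1 dye orientation the counts of called genes depend on the scaling. With position correction 10 of the 49 genes were called lower (22 with loess), 2568 of all genes were called lower (3923) and 13 further ribosome biogenesis genes higher (20), and the median of the 49 genes was -0.044 (-0.11). With processed signals 2 of the 49 were called higher and 2 lower, 974 and 488 of all genes, 0 and 1 of the further genes, and the median was -0.054. The series' own table gave 2 and 1, 898 and 425, 0 and 1, and -0.054. With median centring 1 of the 49 was called higher and 45 lower, 425 and 9238 of all genes, and 0 and 108 of the further genes, the median was -0.66, and the median of all genes was -0.40. The combined rule left 1 and 2 of the 49, 776 and 366 of all genes, and 0 and 1 of the further genes. The median was -0.10 without replicate 1 and -0.051 without replicate 2, and calls cannot be counted from 1 array.

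Among the 32 genes called with loess, signs turned with position correction for Polr1a (0.084), Rrp1b (0.034), Tsr1 (0.045) and Utp15 (0.0034). Over all 49 genes, called or not, 14 turned. Among called genes they turned with processed signals, and alike in the series' table, for Ddx18 (-0.0020), Polr1a (0.077), Rrp1b (0.0060) and Tsr1 (0.030). Polr1c had -0.15 without replicate 1 and 3.31 without replicate 2. With median centring, where a turn was counted for genes called before or after, read against the all-gene median of -0.40, signs turned for Bop1 (-0.23), Ddx18 (-0.36), Ncl (-0.65), Nhp2 (-0.66), Noc4l (-0.53), Nol6 (-0.51), Nop10 (-0.083), Nop2 (-0.68), Nop58 (-0.61), Npm1 (-0.11), Rrp9 (-0.28), Taf1b (-0.47), Ubtf (-0.18), Utp14a (-0.25), Utp20 (-0.41), Wdr12 (-0.38) and Wdr75 (-0.38). The cause of these turns was not tested. Taf1c and Nop56 kept direction and call in every alternative with a test, and Wdr43 lost its call in the series' table and in the mean of its probes. Polr1c lost its call with the robust prior (adjusted p = 0.59). Each array holds both arms and gives 1 ratio, so the arms were already paired within arrays in every fit. Saturation limits Npm1 and Fbl.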
